A study of Mus musculus and Rattus norvegicus with 32 samples.

Results

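Cells detect foreign or misplaced nucleic acids with a small set of receptors, and 7 of their genes were followed here in hearts and cardiomyocytes with altered METTL5, the methyltransferase that places N6-methyladenosine on 18S rRNA. The members were chosen by name: Ddx58 (which encodes RIG-I and is now named Rigi), Ifih1 (MDA5), Dhx58 (LGP2), Mavs, Tlr3, Eif2ak2 (PKR) and Zbp1. All 7 were found in each table, among 55487 genes listed for the mouse and 32883 for the rat, and all 7 passed the filter on low counts in each of the 4 comparisons. In NRVMs (neonatal rat ventricular cardiomyocytes) with AdMETTL5, 6 of the 7 mRNAs were higher than with AdGFP, where 27.1% of all genes tested were. The 6 include Zbp1, which had 0 counts with AdGFP and so had to differ. Mavs was lower, as were 25.7% of all genes, a call that was lost when libraries were scaled by their size only. In METTL5-cKO hearts after TAC, Ddx58 alone of the 7 passed the test, where 12.7% of all genes tested did, and it was lower. That call was lost with size-only scaling, with no filter on low counts and without any 1 of 4 of the 8 libraries. In hearts without surgery, at 1 and at 3 months, none of the 7 passed it.

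RNA was sequenced in 32 libraries, 4 in each of 8 groups. Mouse hearts (C57BL/6) came from METTL5-KO mice, in which the gene is deleted in the whole body, and their controls at an age of 1 month, from METTL5-cKO mice and their controls at 3 months, and from METTL5-cKO mice and their controls 4 weeks after TAC, whose labels also give an age of 3 months. TAC, transverse aortic constriction, narrows the aorta and loads the left ventricle with pressure. The cKO mice carry METTL5 alleles with floxed exons 2, 3 and 4 and a Cre driven by the cardiomyocyte promoter of Myh6, so that the other cells of the heart keep the gene. NRVMs were isolated from newborn Sprague-Dawley rats (postnatal day 2 in the labels) and pre-plated for 1 h to deplete fibroblasts. Both groups of NRVMs carried an adenoviral vector without E1 and E3, which expressed GFP or the human METTL5 coding sequence, and both were treated with 20 μM PE (phenylephrine, a hypertrophic agent) for 24 h. The virus and the protein it encodes cannot be told apart in this design, and no group without virus was analysed here.

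Median totals ran from 14480927.5 counts per library in the AdMETTL5 group to 21664671.5 in the controls at 3 months. Levels are given as CPM, counts in each 1000000 of a library whose size was scaled by the TMM method, as mean ± SD over 4 libraries. A difference was called when its adjusted p was under 0.05 by the quasi-likelihood test of edgeR, with Benjamini-Hochberg correction over all genes tested. Folds and log2 fold changes are of the altered group over its control. The count of the whole Mettl5 gene did not separate the heart groups, with log2 fold changes of 0.22 at 1 month, -0.18 at 3 months and -0.04 after TAC (adjusted p = 0.973, 0.884 and 0.874, edgeR), so that the heart groups rest here on the labels. The whole-gene count also holds reads of exons outside the floxed ones, and counts per exon were not analysed here. Rat Mettl5 was higher with AdMETTL5 by 0.32 on the log2 scale (adjusted p = 0.00295, edgeR), although the virus carries the human sequence.

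The members divide by the place and the kind of nucleic acid they bind. RIG-I and MDA5 are RNA helicases of the cytosol that bind double-stranded RNA, RIG-I preferring short RNA with a 5′ triphosphate and MDA5 long duplexes. LGP2 is their relative without signaling domains. RIG-I and MDA5 signal through MAVS, an adaptor on the mitochondrial outer membrane, to the kinases that activate IRF3 and IRF7 and induce type I interferon. TLR3 binds double-stranded RNA in endosomes. PKR, once bound to double-stranded RNA, phosphorylates the initiation factor eIF2α and lowers translation. ZBP1 binds Z-form nucleic acids and can engage RIPK3 and MLKL in necroptosis. Several of these genes are themselves induced by interferon.

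In the mouse genome (GRCm38) Ddx58 (ENSMUSG00000040296) lies at chr4:40203773-40239828 on the minus strand and Ifih1 (ENSMUSG00000026896) at chr2:62595798-62646255 on the minus strand. Dhx58 (ENSMUSG00000017830) lies at chr11:100694884-100704271, Tlr3 (ENSMUSG00000031639) at chr8:45395665-45411080 and Eif2ak2 (ENSMUSG00000024079) at chr17:78852564-78882573, all on the minus strand. Mavs (ENSMUSG00000037523) lies at chr2:131234063-131248025 on the plus strand and Zbp1 (ENSMUSG00000027514) at chr2:173206612-173218923 on the minus strand. Dhx58, Tlr3 and Eif2ak2 overlap annotated genes on the other strand (Dhx58os, Gm45542, and n-R5s29 and Gm26637). StringTie was run at its default settings, which set no library strand, and the strandedness of the libraries is not given in the sources used here, so the counts of these 3 genes are uncertain to that extent.

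The question put to the NRVMs was what more METTL5 does to the transcriptome of cardiomyocytes under hypertrophic stimulation. All 7 members passed the test, where 52.8% of the 15041 genes tested did. In the higher direction 6 of 7 were called, against 27.1% of all genes, and in the lower direction 1 of 7, against 25.7%. With a log2 fold change over 1 as a further condition, 5 of 7 members were called higher, where 4.05% of all genes were. Both counts include Zbp1, which had 0 counts with AdGFP and passed the filter on low counts only through its AdMETTL5 libraries, so that it had to differ. Without it, 5 of 6 members were called higher, 4 of 6 with a log2 fold change over 1, and 1 of 6 lower. AdMETTL5 and AdGFP libraries were fully apart for all 6 members other than Zbp1, as for 48.4% of all genes, and the exact two-sided permutation test gave p = 0.0286 for each of the 6, the smallest that 4 against 4 libraries allow.

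Among the RIG-I-like receptors, Ddx58 had 8.78, 6.68, 4.26 and 7.56 CPM in the AdGFP libraries and 52.6, 60.9, 65.7 and 42.7 CPM in the AdMETTL5 libraries. The lowest AdMETTL5 library stood far above the highest AdGFP library. Ddx58 rose 8.13-fold (log2 fold change 3.02, SE 0.177, adjusted p = 8.7e-08, edgeR). Ifih1 had 12.2, 9.03, 6.71 and 10.1 CPM with AdGFP and 55.8, 54.7, 71.0 and 47.6 CPM with AdMETTL5. It rose 6.03-fold (log2 fold change 2.59, SE 0.155, adjusted p = 1.0e-07, edgeR), and again all AdMETTL5 libraries lay above all AdGFP libraries. Dhx58, the regulator of both, had 2.79, 2.17, 1.69 and 1.98 CPM with AdGFP, which are 29 to 47 counts per library. With AdMETTL5 it had 26.4, 28.3, 37.3 and 19.9 CPM. Its log2 fold change of 3.69 (SE 0.211, adjusted p = 7.0e-08, edgeR), or 12.9-fold, was the largest of the 6 members with a fitted fold, although its interval of 3.23 to 4.15 overlaps that of Ddx58, 2.64 to 3.41.

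Mavs, the adaptor that serves these receptors, moved the other way. It had 30.7, 32.0, 34.8 and 36.0 CPM with AdGFP and 27.4, 27.7, 25.3 and 27.9 CPM with AdMETTL5. The groups did not overlap, and the difference was small, a fall to 0.811 of the AdGFP level (log2 fold change -0.30, SE 0.0642, adjusted p = 0.00183, edgeR). When libraries were scaled by their size only, the median log2 fold change of all genes moved up by 0.135, and that of Mavs was -0.17 and did not pass the test (adjusted p = 0.0863, edgeR). Apart from Zbp1, which had to differ, the other members were called higher under both scalings.

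The endosomal receptor gene Tlr3 had 9.07, 7.88, 10.2 and 9.77 CPM with AdGFP and 11.2, 14.4, 14.3 and 11.7 CPM with AdMETTL5. It rose 1.40-fold (log2 fold change 0.48, SE 0.110, adjusted p = 0.00291, edgeR), with a gap between the groups that was narrow beside those of the helicases. Eif2ak2, the gene of the kinase PKR, had 52.2, 48.6, 44.1 and 45.9 CPM with AdGFP and 153, 163, 195 and 157 CPM with AdMETTL5. All AdMETTL5 libraries were above all AdGFP libraries, and Eif2ak2 rose 3.50-fold (log2 fold change 1.81, SE 0.0797, adjusted p = 1.5e-08, edgeR). Zbp1 had 0 counts in all 4 AdGFP libraries and 15, 20, 27 and 16 counts in the AdMETTL5 libraries, a mean of 1.29 ± 0.359 CPM. Taking 3 counts per library as the limit that a count of 0 allows, Zbp1 was at least 7.27-fold higher with AdMETTL5, which is given with no test.

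**Figure D1:**
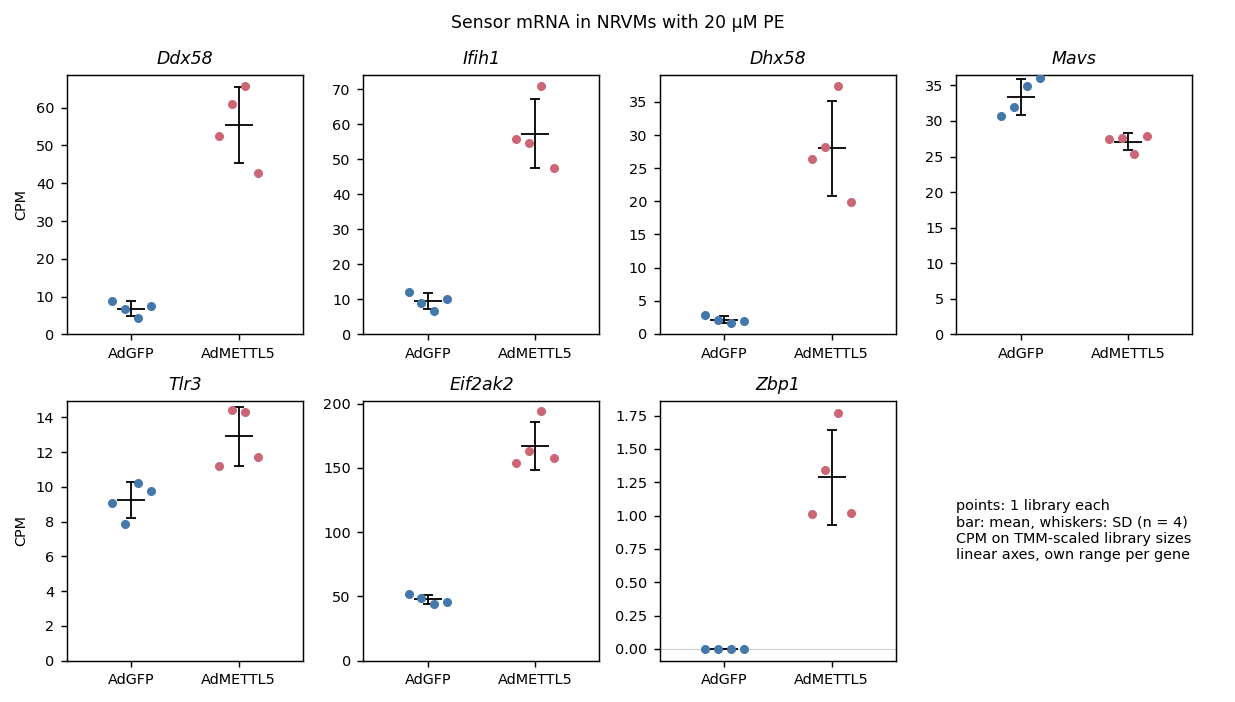
Levels of the 7 mRNAs in NRVMs with PE, in CPM on library sizes scaled by TMM, with 1 point per library and the mean and SD of 4 libraries, on linear axes that differ between genes. The AdMETTL5 libraries lie above the AdGFP libraries for 6 genes, with Ddx58 at 42.7 to 65.7 CPM against 4.26 to 8.78 CPM, and below them for Mavs.

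Genes that work beside the members were counted in 7 lists, which share some genes. Of the 82 genes of these lists that were tested, 41 were higher and 9 lower with AdMETTL5, where 27.1% and 25.7% of all genes were. The 41 include Oas2, which had no counts with AdGFP and so had to differ. In RIG-I-like receptor signaling, 10 of 23 genes were higher and 4 lower, with a median log2 fold change of 0.05 over the list, where the median of all genes was 0.00. The genes of smallest adjusted p were Zc3hav1 (ZAP, an antiviral zinc finger protein, log2 fold change 1.64), Irf7 (an interferon-inducing transcription factor, 4.22) and Trim25 (the ubiquitin ligase that activates RIG-I, 1.59). With size-only scaling of the libraries 13 genes of this list were higher and 1 lower, so that its lower calls depend on the scaling. The same holds for all genes tested, of which 4082 were higher and 3867 lower, and 5872 higher and 2343 lower with size-only scaling.

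Around TLR3, 3 of 7 genes were higher and 2 lower, and 5 higher and 0 lower with size-only scaling, and no log2 fold change of a called gene was above 0.32. In the PKR list, 7 of 16 genes were higher and 2 lower, led by Ppp1r15a and Ppp1r15b (subunits that direct the dephosphorylation of eIF2α, log2 fold changes 0.51 and 0.43) and Tarbp2 (which binds double-stranded RNA and restrains PKR, 0.38). The list's median was 0.10, and with size-only scaling 11 genes were higher and 0 lower. In the list of the ZBP1 route of cell death all 7 genes were higher, with a median of 0.58. Mlkl, which executes necroptosis, had a log2 fold change of 1.02, Adar (ADAR1, the editor that holds ZBP1 and MDA5 in check) 0.97, and Ripk3, the kinase that ZBP1 binds, 0.89.

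Of the other nucleic acid sensors, 6 of 12 were higher and 1 lower, with a median of 0.29. Oas1a, a synthetase of the RNase L pathway, had a log2 fold change of 4.75 and Cgas, the cytosolic DNA sensor, one of 1.53. Oas2 had 0 counts in all AdGFP libraries and was at least 15.4-fold higher with AdMETTL5, by the same limit as for Zbp1. Like Zbp1, it passed the filter on low counts only through its AdMETTL5 libraries and had to differ. It is counted among the 6 higher genes and in the median of this list. Among genes for the editing and removal of nucleic acids, 6 of 11 were higher and 1 lower, with a median of 0.31, led by Adar, Pnpt1 (0.73) and Trex1 (0.88). Among interferon ligands, receptors and their signal, 6 of 12 were higher and 1 lower, with a median of 0.50, with Stat2 (1.78) and Irf1 (0.90) among them, transcription factors of the interferon response. With size-only scaling 9 of the other sensors (Oas2 among them), 7 genes of editing and removal and 7 of the interferon list were higher, and 0 were lower in each. Apart from Oas2, whose call was fixed in advance, none of the named genes of these lists lost its call with size-only scaling.

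Markers of cell types moved in the same cells. All 6 cardiomyocyte markers were lower with AdMETTL5 (their summed level ran from 13490 to 16280 CPM with AdGFP and from 5996 to 6568 CPM with AdMETTL5), as were 5 of 6 fibroblast markers (9418 to 9906 against 7549 to 8316 CPM, 3 lower and 1 higher with size-only scaling) and 2 of the 4 macrophage markers tested (60.9 to 72.0 against 48.5 to 59.4 CPM, 1 lower and 1 higher with size-only scaling). Of the endothelial markers, 1 of 5 was higher (Kdr, log2 fold change 0.86), and 2 of 5 with size-only scaling, with summed levels of 43.3 to 46.0 CPM against 56.0 to 60.5 CPM. Of the smooth muscle and pericyte markers, 1 of 5 was higher (Tagln, 0.24) and 1 lower (Pdgfrb, -0.29), and their sums overlapped (1438 to 1767 against 1472 to 1779 CPM). The T cell markers Cd3d, Cd3e and Cd3g had 0 counts in all 8 libraries, while Cd4, the 1 of the 5 T cell markers that was tested, was lower (log2 fold change -0.74, adjusted p = 0.00119, edgeR), and the sum over the list was 4.30 to 5.66 CPM with AdGFP and 3.17 to 3.50 CPM with AdMETTL5. The part of these markers in the rise of the sensor genes was not tested. In bulk samples, fewer cells of a type and less RNA per cell cannot be told apart.

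The RefSeq table of promoters used here (GRCm38.p6, 250 bases before to 50 after each annotated start) held a window for Ddx58, Ifih1, Mavs, Tlr3 and Eif2ak2. Each was searched for GAAANNGAAA, the core of the interferon-stimulated response element through which interferon induces its target genes, and for its reverse, TTTCNNTTTC. It was found once in 3 of the 5 windows, and in 3.44% of all 32851 windows (in 3.99% of the 27025 genes with a window). There was no window for Zbp1 or for Dhx58, which had the largest fitted fold in the NRVMs, so neither was searched. Whether the motif has a part in the rise in NRVMs was not tested. The 3 stretches found are shown with the motif in capitals.
Ddx58: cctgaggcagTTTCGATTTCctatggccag
Ifih1: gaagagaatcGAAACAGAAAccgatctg
Eif2ak2: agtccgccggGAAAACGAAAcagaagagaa
The first of them lies at chr4:40239804-40239833, the second at chr2:62646206-62646233 and the third at chr17:78882535-78882564. All are given 5′ to 3′ on the minus strand, which is the strand of the genes. In each gene the motif lies past the annotated start. Counted with the start itself as the first base, it begins at base 3 in Ddx58, 33 in Ifih1 and 19 in Eif2ak2. The windows of Mavs and Tlr3 hold no match, which says only that these letters are absent there. The Tlr3 window (chr8:45410331-45410630) lies inside the gene as placed above, whose 5′ end is at 45411080, so that end was not searched. These are mouse sequences, while the rise was measured in the rat, whose promoters were not used here.

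In hearts, Mavs stood well above the other members in level. Per kilobase of exon, and as a mean over the 6 heart groups, Mavs had 10.1 CPM per kb and was the most abundant, followed by Ddx58 (2.20), Tlr3 and Eif2ak2 (1.45 each), Ifih1 (1.11), Dhx58 (0.691) and Zbp1 (0.535). Ddx58 stood at 20.6 ± 2.72 CPM in the 1-month controls, 12.8 ± 1.11 CPM in the 3-month controls and 14.4 ± 1.40 CPM in the TAC controls. Ifih1 followed the same order, with 11.1 ± 2.19, 8.17 ± 1.32 and 8.81 ± 0.762 CPM. Dhx58 had 3.48 ± 0.876, 1.54 ± 0.573 and 2.16 ± 0.228 CPM, and Zbp1 3.52 ± 1.84, 0.835 ± 0.434 and 1.07 ± 0.754 CPM. Eif2ak2 had 8.75 ± 2.44, 6.38 ± 0.987 and 6.68 ± 0.411 CPM in the same order. Tlr3 stayed level, at 7.75 ± 1.54, 8.01 ± 0.838 and 7.42 ± 0.614 CPM. Mavs ran the other way, with 22.0 ± 2.39 CPM at 1 month, 41.6 ± 8.59 CPM at 3 months and 33.2 ± 4.77 CPM after TAC.

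When the 6 heart groups were put in order of their means for each gene, nearly all neighbours in that order overlapped. The exception was Ddx58 between the 1-month controls (17.7 to 24.3 CPM) and the TAC controls (13.3 to 16.4 CPM), whose libraries did not overlap. The share of all genes that are apart between these groups was not computed. Groups farther from each other in the order were apart for other members too. The 1-month and 3-month controls, for example, were apart for Mavs (18.4 to 23.4 against 33.2 to 50.8 CPM). They were also apart for Dhx58 (2.74 to 4.71 against 1.07 to 2.36 CPM). These orders set 3 tables beside each other that were scaled separately. Scaling all 24 heart libraries together multiplied the group means of the members by 0.963 to 1.07. Age, surgery and experiment cannot be told apart between the tables, so that these levels are a description without a test.

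**Figure D2:**
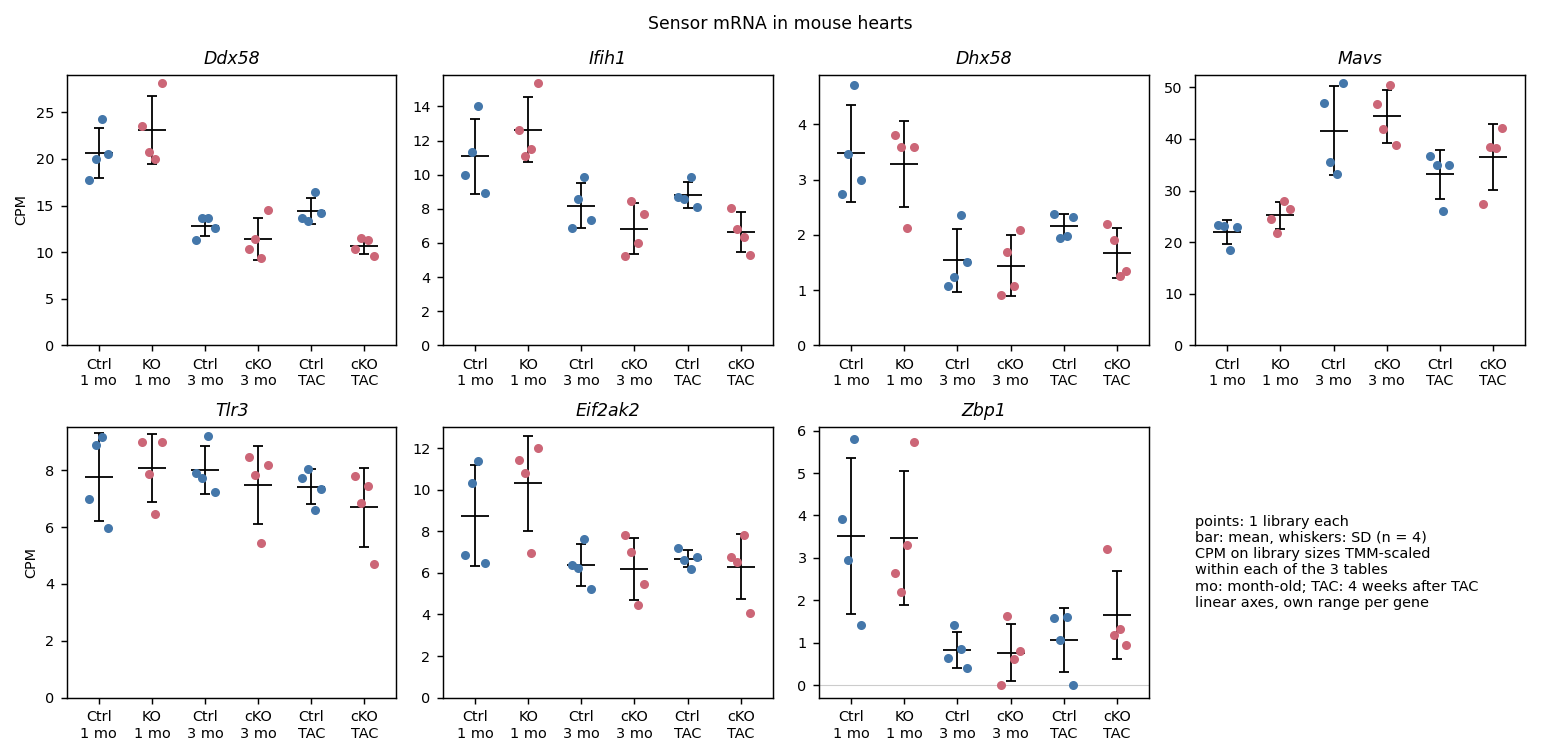
Levels of the 7 mRNAs in mouse hearts, in CPM on library sizes scaled within each table, with 1 point per library and the mean and SD of 4 libraries, on linear axes that differ between genes. Control and METTL5-KO or METTL5-cKO libraries overlap in each table except for Ddx58 and Ifih1 after TAC, and Ddx58 is highest at 1 month (20.6 and 23.1 CPM).

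The comparison after TAC asked how the loss of METTL5 in cardiomyocytes alters the pressure-loaded heart. The hearts labelled METTL5-cKO had 1 member called of 7, where 12.7% of the 16340 genes tested were called. The count behind that share, 2071 genes, ran from 479 without the fourth control library to 3899 without the fourth METTL5-cKO library, in the order of the table. For 2 of the 7 members, and for 18.6% of all genes, the control and METTL5-cKO libraries were fully apart.

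Ddx58 had 13.7, 13.3, 16.4 and 14.2 CPM in the control hearts after TAC and 10.3, 11.5, 11.3 and 9.64 CPM in the METTL5-cKO hearts. The highest METTL5-cKO library was below the lowest control library. Ddx58 was lower by a log2 fold change of -0.43 (SE 0.0959, adjusted p = 0.0231, edgeR), from 14.4 to 10.7 CPM on average, and the exact permutation test gave its smallest possible p of 0.0286. This call rests on single libraries and settings. Without the third or the fourth control library, or without the first or the second METTL5-cKO library, the adjusted p of Ddx58 was 0.0531, 0.0713, 0.0618 and 0.0545 (edgeR), and its log2 fold change ran from -0.47 to -0.35 over all 8 omissions. With no filter on low counts its adjusted p was 0.0556 (edgeR). With size-only scaling, under which the median of all genes was higher by 0.147, its log2 fold change was -0.28 (adjusted p = 0.157, edgeR).

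Ifih1 had 8.68, 8.56, 9.89 and 8.10 CPM in the control hearts and 8.07, 6.83, 6.35 and 5.29 CPM in the METTL5-cKO hearts. The groups again did not overlap, since the highest METTL5-cKO library was just below the lowest control library. Ifih1 did not pass the test, with a log2 fold change of -0.41 (SE 0.130, adjusted p = 0.0694, edgeR), and passed it without the first METTL5-cKO library (log2 fold change -0.51, adjusted p = 0.0450, edgeR). Dhx58 had 2.38, 1.95, 1.98 and 2.33 CPM in the control hearts and 2.19, 1.91, 1.25 and 1.35 CPM in the METTL5-cKO hearts, which overlapped (log2 fold change -0.36, interval -0.81 to 0.08, adjusted p = 0.248, edgeR). The RIG-I-like receptors thus had log2 fold changes of similar size, of which that of Ddx58 passed the test.

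The other members had wide or small differences after TAC. Mavs had a log2 fold change of 0.14 (interval -0.19 to 0.47), Tlr3 one of -0.15 (-0.49 to 0.20) and Eif2ak2 one of -0.08 (-0.47 to 0.31), and the libraries of the groups overlapped in each. The signs of Tlr3 and Eif2ak2 turned with size-only scaling. Zbp1 ranged from 0 to 32 counts in the control hearts, and the METTL5-cKO hearts had 19 to 73 counts. At so few counts its log2 fold change of 0.66 has an interval from -0.83 to 2.14.

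In the same hearts, 15 of the 87 tested genes of the pathway lists were called, 6 higher and 9 lower, where 12.7% of all genes were called. Trim25, the activator of RIG-I, was lower with Ddx58 (log2 fold change -0.53), while Traf3, an adaptor below both MAVS and TLR3, was higher (0.60). No other call fell among the 24 genes of RIG-I-like receptor signaling or the 8 genes of the TLR3 route, whose medians were -0.09 and -0.01. With size-only scaling 3 genes of the first list were higher and 0 lower. In the interferon list 5 of 12 genes were lower and 1 higher, with a median log2 fold change of -0.16 where that of all genes was 0.00. With size-only scaling 1 of them was lower and 1 higher, and the list's median was -0.02. Of these 6 genes, Irf1 (-0.63) and Irf9 (-0.40), transcription factors of the interferon response, were lower and Ifngr1, a receptor of interferon gamma, was higher (0.38). Adar (-0.44) was the 1 call among 7 genes of the ZBP1 route, whose median was -0.06. In the PKR list, with a median of 0.02, 2 of 15 genes were higher, Ppp1r15a (0.82) and Atf4 (0.30), a transcription factor translated when eIF2α is phosphorylated.

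Of the 16 other nucleic acid sensors, Oas2 was lower (-0.86) and Tlr8, an endosomal receptor of single-stranded RNA, was higher (1.41). Of 11 genes for editing and removal, Adar and Samhd1 (a dNTPase, -0.37) were lower and Dnase2a (a lysosomal DNase, 0.49) was higher. The medians of these lists were 0.00 and -0.11. With size-only scaling the log2 fold changes of Trim25, Irf9, Adar and Samhd1 were -0.39, -0.25, -0.29 and -0.23 and did not pass the test, while the other genes named here kept their calls. Over all genes, 1074 were higher and 997 lower after TAC, and 2060 higher and 524 lower with size-only scaling.

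**Figure D3:**
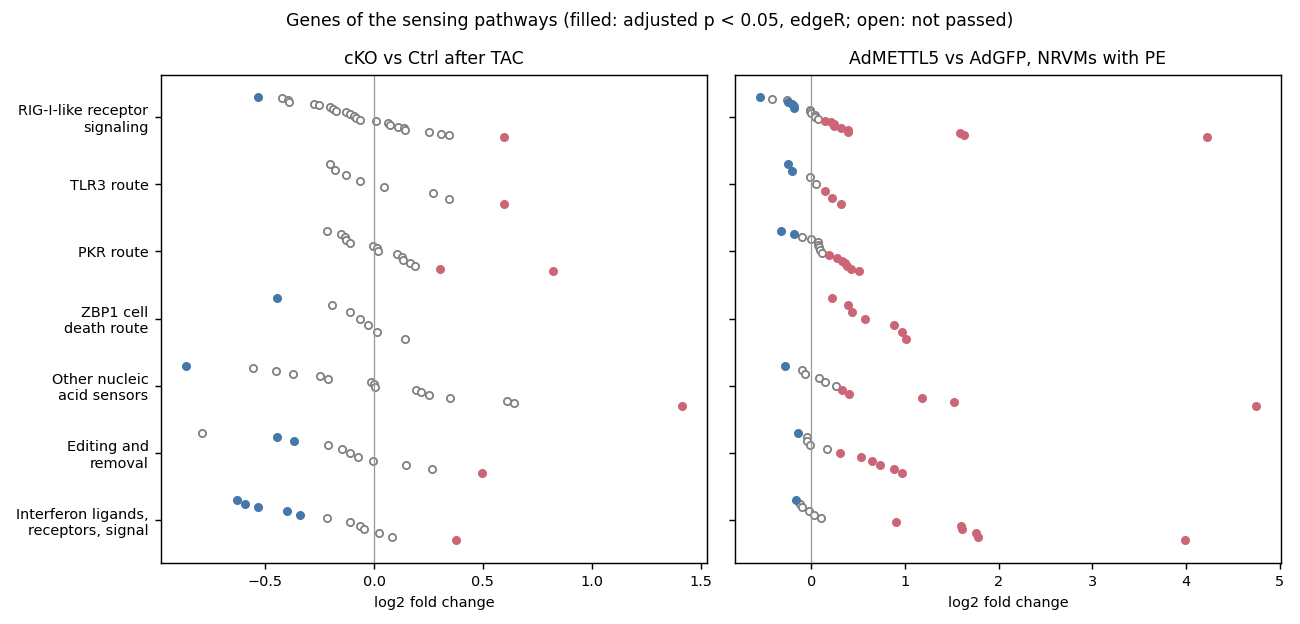
Log2 fold changes of the tested genes of the 7 pathway lists, after TAC (left) and in NRVMs (right, on a wider axis), with 1 point per gene, filled where the adjusted p was under 0.05 (red higher, blue lower) and open otherwise. Oas2 in NRVMs is not drawn, since it had 0 counts with AdGFP, and the interferon list holds 5 lower and 1 higher gene after TAC (1 and 1 with size-only scaling) against 6 higher and 1 lower in NRVMs.

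Of the fibroblast markers, 5 of 6 were higher in the METTL5-cKO hearts, with summed levels of 431 to 529 CPM in the controls and 651 to 2034 CPM in the METTL5-cKO hearts. Of the endothelial markers, 5 of 6 were lower (639 to 750 against 427 to 570 CPM). Of the cardiomyocyte markers, 2 of 6 were lower (29380 to 33290 against 20080 to 27000 CPM), and of the macrophage markers, 2 of 6 were higher (101 to 132 against 129 to 182 CPM). None of the 5 smooth muscle and pericyte markers was called (1 was higher with size-only scaling), although their sums were apart (483 to 530 against 399 to 479 CPM). The part of these cell types in the lower Ddx58 was not tested.

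**Figure D4:**
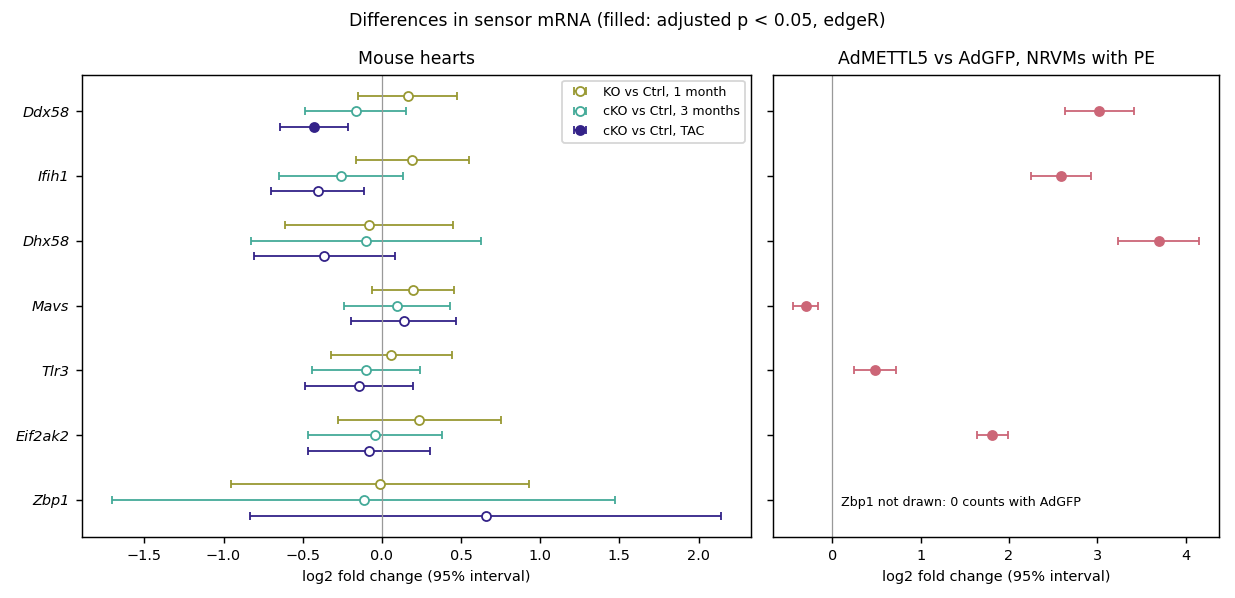
Log2 fold changes of the 7 mRNAs with 95% intervals from edgeR, in the 3 heart comparisons (left) and in NRVMs (right, on a wider axis), filled where the adjusted p was under 0.05. In hearts only Ddx58 after TAC is filled, at -0.43, and in NRVMs the 6 drawn genes are, from -0.30 for Mavs to 3.69 for Dhx58, where Ddx58 after TAC and Mavs in NRVMs are not called with size-only scaling.

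Without surgery, the members were compared to see whether losing METTL5 alone alters them. At 3 months none of the 7 was called (0.0732% of 16391 genes were), none had an unadjusted p under 0.05 and none was called by DESeq2. The groups overlapped for all 7, as they did for all but 4.23% of genes. Ddx58 had 11.3, 13.6, 13.6 and 12.6 CPM in the control hearts and 10.4, 11.4, 9.35 and 14.5 CPM in the METTL5-cKO hearts. The highest library of all was from the METTL5-cKO group. The log2 fold change of Ddx58 was -0.16 (SE 0.142, interval -0.48 to 0.15). Ifih1 had a log2 fold change of -0.26 (-0.65 to 0.14), Dhx58 -0.10 (-0.83 to 0.63), Mavs 0.09 (-0.24 to 0.43), Tlr3 -0.10 (-0.44 to 0.24) and Eif2ak2 -0.04 (-0.47 to 0.38). Zbp1 was near the floor, with 9 to 29 counts in a control library and 0 to 35 in a METTL5-cKO library. The summed cardiomyocyte markers did not overlap between these groups (31940 to 35940 against 27870 to 31220 CPM), although none of the 6 was called.

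At 1 month, in whole-body METTL5-KO hearts, none of the 7 members was called (0.00612% of 16329 genes were), none had an unadjusted p under 0.05 and none was called by DESeq2. The groups overlapped for all 7, as for all but 3.01% of genes. Ddx58 had 17.7, 20.0, 24.3 and 20.6 CPM in the control hearts and 23.5, 20.7, 20.0 and 28.1 CPM in the METTL5-KO hearts (log2 fold change 0.16, SE 0.139, interval -0.15 to 0.48). Ifih1 had a log2 fold change of 0.19 (-0.17 to 0.55), Dhx58 -0.08 (-0.61 to 0.45), Mavs 0.19 (-0.06 to 0.45), Tlr3 0.06 (-0.32 to 0.44), Eif2ak2 0.24 (-0.28 to 0.75) and Zbp1 -0.01 (-0.96 to 0.93). For each member the interval reaches a change as large as that of Ddx58 after TAC in one direction or the other. None of the 85 tested genes of the pathway lists was called at 1 month or at 3 months by edgeR or DESeq2. At 1 month 5 of them had an unadjusted p under 0.05 (edgeR), as did 747 of all 16329 genes tested. At 3 months 10 of them did, as did 1155 of all 16391 genes tested.

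Since Ddx58 passed the test after TAC and not at 3 months, the difference between the effects was tested by an interaction term over 16 libraries. None of the 7 members differed (0.00586% of 17070 genes did), none had an unadjusted p under 0.05, and none was called by DESeq2. For Ddx58 the log2 fold change after TAC minus that at 3 months was -0.25 (SE 0.172, adjusted p = 0.620, edgeR). For Ifih1 it was -0.13 (SE 0.227) and for Dhx58 -0.24 (SE 0.396). The effect after TAC was therefore not shown to differ from that at 3 months.

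The members were also compared across single heart libraries. After the mean of each group was taken off, the log2 CPM of Ddx58 and Ifih1 over the 24 heart libraries correlated with a Pearson r of 0.703 (rho 0.716). The p by permutation within groups was 0.00702 after Benjamini-Hochberg adjustment over 6 relations, and r was 0.818, 0.696 and 0.500 in the tables of 1 month, 3 months and TAC. It was 0.669 without the 2 libraries farthest from the median. Dhx58 correlated with Ddx58 with r = 0.615 (rho 0.641, adjusted permutation p = 0.0222), but with -0.02 within the TAC table. Mavs correlated negatively, with r = -0.499 (rho -0.600, adjusted permutation p = 0.0222), and with -0.322, -0.709 and -0.453 in the 3 tables. Tlr3 (r = 0.488), Eif2ak2 (0.426) and Zbp1 (0.290) had adjusted permutation p of 0.0664, 0.109 and 0.270. A heart library with more Ddx58 than its group thus tended to have more Ifih1 and less Mavs. In the controls at 1 month, the library with most Ddx58 (24.3 CPM) had a Mavs value apart from the others (18.4 CPM). The same held in the controls after TAC (16.4 and 26.1 CPM). These correlations were computed with TMM scaling only.

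**Figure D5:**
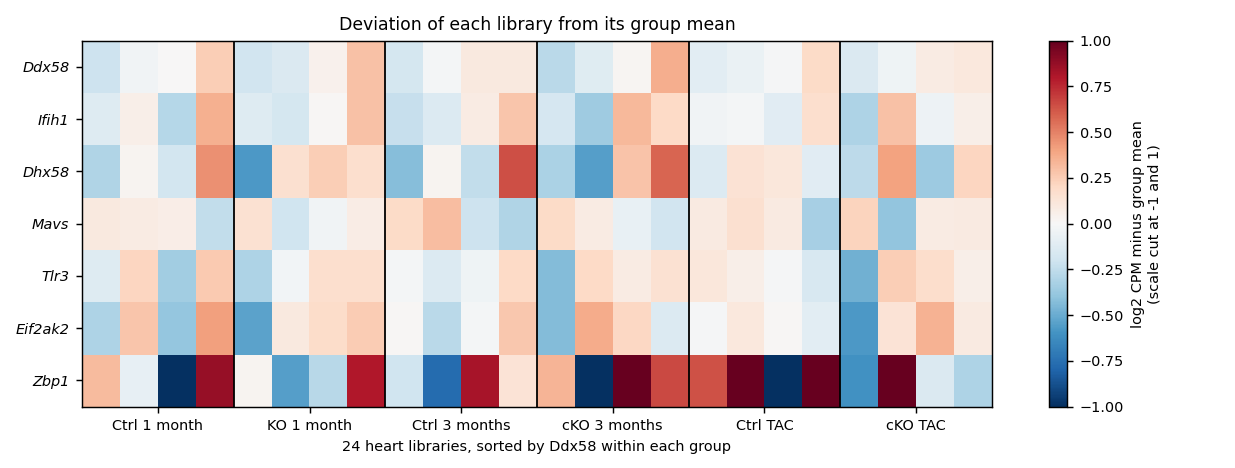
Deviation of each of 24 heart libraries from its group mean, as log2 CPM, for the 7 genes, with the libraries of each group sorted from low to high Ddx58. Ifih1 follows Ddx58 from left to right within most groups (r = 0.703), Mavs runs against it (r = -0.499), and Zbp1, the gene of fewest counts, varies most.

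Over the same 24 libraries, the genes most like the mean of Ddx58, Ifih1 and Dhx58, among 15536 compared, were Parp9 (r = 0.922), Rtp4 (0.905), Pml (0.900), Oasl2 (0.886) and Ifitm3 (0.842). This is a description over libraries that share their group means and their scaling, with no test.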

How the data were processed

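The authors aligned the reads with HISAT2 2.0.4 to GRCm38 (mouse) or Rnor_6.0 (rat) and made estimated counts per gene with StringTie 2.1.4 before the tables were deposited, and the labels name DESeq2 1.4.5 for their own tests. The deposited values are whole numbers, not scaled between libraries, so rounding changed nothing; plain counts had been assumed when the tests were chosen, and the same tests were used. Each of 4 tables was fitted as a whole with the quasi-likelihood test of edgeR 4.0.16 under R 4.3.3, after TMM scaling and a filter on low counts (filterByExpr, minimum count 10 and total 15), and p-values were adjusted by the Benjamini-Hochberg method. Intervals are t-based, and those and the limit of 3 counts cover counting and library spread only. For single genes, log2 CPM (prior count 2) were permuted over all 70 labelings in an exact two-sided test. Groups came from the labels and column names; only the columns of the 1-month table could be matched to single samples. Replicates are separate samples by their labels, which do not say that they are separate animals or cultures, so that p-values measure the spread between these samples. No 2 libraries were alike within sampling noise (smallest chi-square per degree of freedom 2.20). The biological coefficient of variation fell from 0.221 in the 1-month table to 0.181 in the 3-month table, 0.159 in the TAC table and 0.0675 in the NRVM table.

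The members and the gene lists were chosen with earlier results of these data known, and the correlations between members were added with the values known. Named were all members, Mettl5, up to 3 genes of smallest adjusted p per list and comparison with calls, and the 5 genes most like the RIG-I-like receptors. Alternatives were DESeq2 1.42.0, its size factors, library size alone, other filters, a threshold on the fold, a block for the replicate number (1 month), and fits without each library. The scalings were also tried on the gene lists, and the NRVM members counted without Zbp1, both added with the values known. The pipeline was tested on simulated data. Of genes with a simulated log2 fold change of 0.5, it called 6% at 1 month, 2% at 3 months and 12% after TAC. It called 72% of such genes in NRVMs and 10% for the interaction. At a simulated log2 fold change of 3 it called 96% to 100%. The table of si-METTL5 treated cells was not used here. Some genes that the naming rule selects are left out of the text.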

Additional observations from a re-analysis of the deposited data

Results flagged for a closer look

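In groups of 4 libraries, 1 library stood apart in 3 of the 55 combinations of member and group looked at, and chance flags about 1 in 20. The ratio of the gap to the whole range was 0.906 for Mavs in the 1-month controls, where 1 library had 18.4 CPM and the others 22.9 to 23.4 CPM. It was 0.871 for Dhx58 in the METTL5-KO hearts at 1 month, with 2.12 CPM against 3.58 to 3.80 CPM. It was 0.832 for Mavs in the control hearts after TAC, with 26.1 CPM against 34.9 to 36.7 CPM.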

How the results depend on the processing

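Of 368 log2 fold changes of members under the alternatives, 336 kept their direction and side of the threshold. Of the rest, 7 lost a call, 1 gained one and 24 changed sign. In NRVMs 89 of 90 were kept and Mavs lost its call with library size alone. Both totals include Zbp1 in NRVMs, whose call was fixed by its counts of 0 with AdGFP. No sign changed for a called value. The number of members called after TAC, 1, was 0 with library size alone, with no filter on low counts and with a minimum log2 fold change of 1, and 0 to 1 with 1 library left out. Counts over all genes also moved, and the cause was not tested. At 1 month, 1 gene became 13 with DESeq2, 0 with library size alone and 0 to 2 with 1 library left out. At 3 months, 12 became 108 with DESeq2, 1 with no filter and 2 to 9. After TAC, 2071 became 1052 with no filter, 474 with the minimum fold change and 479 to 3899. In NRVMs, 7949 became 880 with the minimum fold change.

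The values that changed sign were all of uncalled differences. With library size alone, Zbp1 at 1 month had 0.034, Eif2ak2 at 3 months 0.0099, and after TAC Tlr3 had 0.012 and Eif2ak2 0.083; with no filter Zbp1 at 1 month had 0.0099. With 1 library left out, log2 fold changes at 1 month ran from -0.18 to 0.096 for Dhx58, -0.046 to 0.15 for Tlr3 and -0.36 to 0.32 for Zbp1. At 3 months they ran from -0.34 to 0.18 for Dhx58, -9.5e-05 to 0.21 for Mavs, -0.17 to 0.020 for Tlr3, -0.18 to 0.079 for Eif2ak2 and -0.80 to 0.30 for Zbp1. After TAC, Eif2ak2 ran from -0.20 to 0.082. The difference of effects between TAC and 3 months with library size alone was 0.061 for Tlr3 and 0.073 for Eif2ak2, and with 1 library left out it ran from -0.057 to 0.17 for Mavs, -0.15 to 0.093 for Tlr3 and -0.15 to 0.13 for Eif2ak2.

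The replicate block at 1 month left 0 members and 1 gene called, as without it. Same-numbered libraries there correlated with -0.107 to 0.239, and 1 of 4 best with its own number, so that the numbers were not taken as pairs. The columns of the other tables carry no shared numbers. Depth limits Zbp1 most, which had 0 to 118 counts in a heart library.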
